A study of Mus musculus with 9 samples.

Results

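DNA methylation was examined at 8 genes of interferon production and innate sensing, Ifih1, Tlr3, Mavs, Irf7, Irf1, Stat2, Irf9 and Isg15, in a mouse B cell line grown with the demethylating drug 5-aza-2'-deoxycytidine (5-aza-dC). The genes were taken as a list of names, by a rule that uses no methylation value, though the list was drawn up with earlier results of these data known. Their CpGs were those lying from 2 kb outside one gene end to 2 kb outside the other and covered by at least 1 read in each of the 9 libraries. This gave 246 CpGs, of 423 read in at least 1 library in the same spans and of 1096949 read in all 9 libraries across the genome. The 8 genes were among 17273 protein-coding genes whose strand was known.

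The libraries were made by reduced representation bisulfite sequencing (RRBS), in which a restriction digest enriches CpG-rich fragments and bisulfite conversion separates methylated from unmethylated cytosines. All came from Abl.1, a clonal line of immortalised B cells. Its strain is 129S1/SvImJ x CAST/EiJ F1 and its sex female. Cells were collected on day 2, after removal of dead cells by density gradient, from medium with 1% DMSO, the solvent (2 libraries), or with 5-aza-dC at 0.2 µM (2 libraries), 2 µM (3 libraries) or 10 µM (2 libraries). The labels call the replicates library preparations of a group and name no separate cultures. The p-values below rest only on read counting and on the spread between these libraries, partly borrowed from windows of other genes. That spread may be technical. Abl.1 is 1 clone, its 2 parental genomes were not separated, and a level between 0 and 100% is a share of the reads pooled over cells and alleles. Libraries held 8590883 to 16495535 reads at CpGs, where the median CpG had 3 to 5 reads, and mean levels over all shared CpGs were 37.5 and 37.7% in DMSO, 16.5 and 16.7% at 0.2 µM, 22.7 to 23.2% at 2 µM, with 30.6 and 30.7% at 10 µM. RNA was not measured, so the B cell label was looked at only through the start of marker genes: of 10 B lineage markers, the start of Ebf1, a transcription factor of early B cells, was the only one with enough reads, at 0.272% in DMSO. The start of Klf1, an erythroid factor, was at 13.1%, and no T cell or myeloid marker could be read at its start.

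The genes form a chain from sensing to response. Ifih1 (MDA5) detects double-stranded RNA in the cytosol and Tlr3 detects it in endosomes, and Mavs is the mitochondrial adaptor through which Ifih1 signals. Irf7 and Irf1 are transcription factors that switch on interferon genes, Stat2 and Irf9 carry the type I interferon signal to the nucleus, and Isg15 is a ubiquitin-like protein made in response to it. 5-aza-dC is incorporated into replicating DNA, where it traps the maintenance methyltransferase Dnmt1, so that methylation is diluted as cells divide. Genes of this chain are often induced by such drugs, as background, and one question is whether their own promoters carried methylation that could be removed.

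Promoter sequences, from 250 bases before to 50 after a transcript start, were available from RefSeq (GRCm38.p6) for 8 of 8 genes, 10 sequences in all. The following 4 are shown because they set out what RRBS could and could not read. In the first 3, capitals mark the CpGs read in all 9 libraries, and in that of Isg15 capitals mark matches, on either strand, to the core of the interferon-stimulated response element (ISRE), searched as GAAA, any 2 bases and GAAA again. All run 5′ to 3′ on the strand of the gene. They are the Irf7 promoter at chr7:141266375-141266674 (minus strand), the Ifih1 promoter at chr2:62646206-62646505 (minus strand), the promoter of Irf1 that lies farther upstream, at chr11:53769764-53770063 (plus strand), and the Isg15 promoter at chr4:156200769-156201068 (minus strand).
Irf7: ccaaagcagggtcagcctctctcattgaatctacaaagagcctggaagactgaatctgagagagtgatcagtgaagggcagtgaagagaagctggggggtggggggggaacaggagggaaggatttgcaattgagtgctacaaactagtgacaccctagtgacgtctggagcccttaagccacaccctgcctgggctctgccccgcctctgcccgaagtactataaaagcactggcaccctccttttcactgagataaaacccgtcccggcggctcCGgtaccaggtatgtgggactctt
Ifih1: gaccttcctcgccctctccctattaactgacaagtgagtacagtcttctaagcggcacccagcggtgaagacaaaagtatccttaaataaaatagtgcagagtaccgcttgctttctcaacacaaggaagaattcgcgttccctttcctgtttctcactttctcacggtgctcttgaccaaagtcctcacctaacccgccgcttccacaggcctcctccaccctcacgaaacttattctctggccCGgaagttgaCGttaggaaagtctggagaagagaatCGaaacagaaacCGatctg
Irf1: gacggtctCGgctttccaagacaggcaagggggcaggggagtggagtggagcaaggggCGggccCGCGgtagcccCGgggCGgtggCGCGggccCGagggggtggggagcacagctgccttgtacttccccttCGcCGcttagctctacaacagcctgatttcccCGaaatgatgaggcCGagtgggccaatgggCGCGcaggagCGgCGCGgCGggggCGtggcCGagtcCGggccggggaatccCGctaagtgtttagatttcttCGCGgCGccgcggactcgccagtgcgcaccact
Isg15: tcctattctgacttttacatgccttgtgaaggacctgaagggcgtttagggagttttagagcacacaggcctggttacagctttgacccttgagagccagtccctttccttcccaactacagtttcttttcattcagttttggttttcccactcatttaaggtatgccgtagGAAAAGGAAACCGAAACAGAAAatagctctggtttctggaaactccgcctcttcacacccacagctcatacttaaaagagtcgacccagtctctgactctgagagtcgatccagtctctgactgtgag

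Irf1 was the best covered, with 26 of the 32 CpGs of this promoter read in all libraries, and 30 of 43 in its other promoter. Of 560 DMSO reads over those 26 CpGs 0 were methylated, and of 665 over the 30 CpGs 4 were. At Ifih1, 4 of 14 CpGs were read, with 0 of 82 DMSO reads methylated. They lie at and after the start, and the third of them overlaps the only ISRE core match of this promoter, whose first base is base 283 of the sequence. Irf7 had 1 of 7 CpGs read, with 1 of 18 DMSO reads methylated, and Mavs 3 of 19, with 1 of 100. The promoter of Irf9 nearer its annotated start had 4 of 9 CpGs read and 0 of 46 DMSO reads methylated. In the promoters of Stat2 (22 CpGs), Tlr3 (10 CpGs) and Isg15 (6 CpGs), 0 CpGs were read in all 9 libraries. The Isg15 sequence holds 3 overlapping ISRE core matches, the first starting 78 bases before the start, and the Stat2 sequence holds 1, on the other strand. Such a match occurs in 3.44% of 32841 promoters of this length. Irf1 has 1 match to the core of the gamma-interferon activation site, TTCNNNGAA on either strand, 90 bases before the start, against 8.30% of promoters with at least 1. RRBS fragments are usually cut at CCGG, and the Isg15 promoter has 0 such sites, while 52.8% of promoters have at least 1. The promoters of Stat2 and Tlr3 have 1 and 2 such sites, and they too had 0 CpGs read in all 9 libraries. Why these 3 promoters were not read was not tested. A match here is a run of letters in the window and not evidence of binding.

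Promoters were next taken more widely, as the 5′ end, all CpGs within 1 kb of the annotated gene start. At 6 of the 8 genes the 5′ end held shared CpGs, 150 in all. Over the CpGs read, every one of these 6 ends was unmethylated before drug by the rule used here, under 10% in DMSO. Those of Irf7 and Stat2 all lie inside the gene, 101 to 367 bp and 85 to 253 bp from the start. Those of Ifih1 run from -5 to 291 bp. At these genes the sequence farther upstream held no shared CpG, so its methylation before drug was not measured. Over the 150 CpGs, 18 of 3613 DMSO reads were methylated, or 0.498%, and 132 of the CpGs had no methylated DMSO read. Low 5′ ends are common in these cells: 70.0% of the 10040 5′ ends tested over all genes were under 10% in DMSO, with a median of 0.833%, and 17.2% were at 50% or above.

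Among the sensors and the adaptor, the Ifih1 5′ end (20 CpGs) had 1 methylated read of 571 in DMSO, or 0.175% (95% Wilson interval 0.0309 to 0.985%). Its library levels were 0.231 and 0% in DMSO, 0.345 and 0.369% at 0.2 µM, 0, 0.573 and 0% at 2 µM, and 0% in both 10 µM libraries. The Mavs 5′ end (22 CpGs) stood at 0.731% in DMSO (0.285 to 1.86%, 4 of 547 reads), and its libraries ran from 0% to 1.64%, the highest being a DMSO library. Both ends thus stayed below 2% in every library. DMSO and drug libraries overlapped, except at 0.2 µM for Ifih1, where both libraries lay above both DMSO libraries. Tlr3 had no CpG shared by all libraries at its 5′ end, because 10 µM replicate 2 had no read there. In the other libraries 0 of 115 DMSO reads were methylated over 13 CpGs, which allows a level of up to 2.61%, and 0 of 112, 0 of 133 and 0 of 58 were at 0.2, 2 and 10 µM. Intervals and limits of this kind cover counting error only, since copies made by PCR were not separated.

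Among the transcription factors, the Irf1 5′ end (76 CpGs) had 6 methylated of 1950 DMSO reads, 0.308% (0.141 to 0.670%). Its levels were 0.211 and 0.568% in DMSO, 0.952 and 0.661% at 0.2 µM, 0.520, 0.233 and 0% at 2 µM, with 0.867 and 0% at 10 µM. The Irf7 5′ end (8 CpGs) had 2 of 153, 1.31% (0.359 to 4.64%), and its highest library was DMSO replicate 1 at 2.02%. The Stat2 5′ end (14 CpGs, within both Stat2 and the neighbouring gene Apof) had 2 of 255, 0.784% (0.215 to 2.81%). Its libraries held 0.595 and 1.15% in DMSO, 0 and 1.85% at 0.2 µM, 0, 0 and 1.02% at 2 µM, with 2.59 and 2.70% at 10 µM. The 10 µM libraries were the highest of the 9, by 1.77 percentage points over DMSO on average, a difference that did not pass (adjusted p = 0.803). Against 2 µM they passed only when every CpG was given equal weight (adjusted p = 0.027). The Irf9 5′ end (10 CpGs) had 3 of 137, 2.19% (0.747 to 6.24%), and its libraries ran from 0% to 5.88%. In the cluster of 3 CpGs farthest upstream, which overlaps the end of the neighbouring gene Rnf31, 2 of 50 DMSO reads were methylated, while the 6 CpGs around the start had 0 of 78.

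The 5′ ends did not differ detectably between groups in any comparison. Each window, meaning all shared CpGs of 1 region of 1 gene, had its methylated reads compared between groups in a binomial model, and p-values were adjusted over 22210 windows of all genes, with 0.05 as the threshold. Of 6 member 5′ ends 0 passed at 0.2, 2 or 10 µM against DMSO, 0 at 2 against 0.2 µM and 0 at 10 against 2 µM. Of all 7033 5′ ends under 10% in DMSO, 2.42%, 0.0569% and 0% were called lower at the 3 rising doses, and 0.0995%, 0.185% and 0.171% were called higher. A level near 0 leaves almost nothing to lose, so at these depths a fall could not have been seen.

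Isg15 is the gene about which the libraries say least. Its 5′ end had no DMSO read at all, so whether it was methylated before drug was not measurable. Drug libraries gave 1 methylated of 9 reads at 0.2 µM, 2 of 5 at 2 µM and 6 of 6 at 10 µM over 2 CpGs, with a single library behind each of the last 2 values. At its 3′ end, over 4 CpGs and again with no DMSO read, 2 of 16, 6 of 9 and 8 of 8 reads were methylated. The 43 shared CpGs counted for Isg15 all lie 2622 to 3388 bp from its start, beyond its other end, in a stretch shared with Gm46878 and in part with Agrn. That stretch was unmethylated: 8 of 1228 DMSO reads were methylated, or 0.651% (0.330 to 1.28%). The libraries held 0.627 and 0.696% in DMSO, 0.150 and 0.146% at 0.2 µM, 0.380, 0.200 and 0.897% at 2 µM, with 0.318 and 0.254% at 10 µM. No comparison passed there, and its values say nothing of the Isg15 promoter.

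**Figure D1:**
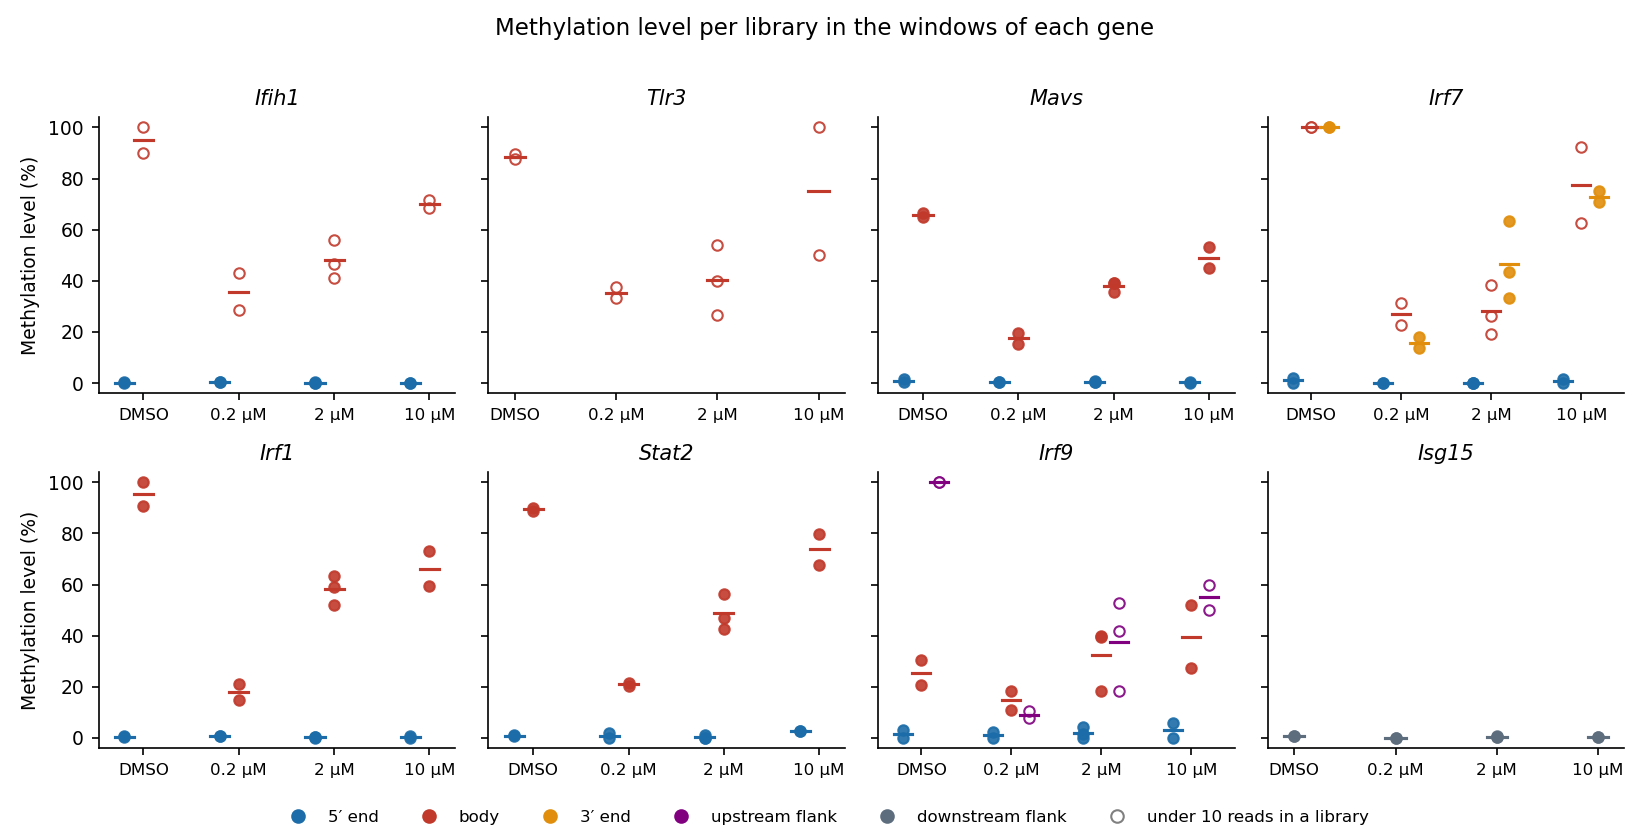
Methylation level (%, vertical axis) of each library (points) and group means (bars) in the windows of each gene, by treatment (horizontal axis), with open points for windows that had under 10 reads in a library. The 5′ ends stay at or below 5.88% in all libraries. Group means of the Irf7 3′ end and of every body shown are lowest at 0.2 µM. By single libraries, in the Irf7 and Tlr3 bodies a 2 µM library lies below both 0.2 µM libraries, and in the Irf9 body groups overlap.

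Away from the starts, the same genes carried methylated CpGs. Bodies are the parts more than 1 kb inside both gene ends, and 3′ ends lie within 1 kb of the other end. Of the 5 body and 3′ end windows that could be tested, 4 were methylated before drug, at 50% or above, and these 4 were lower at 0.2 µM and at 2 µM, with 1 lower at 10 µM. Over all windows the corresponding shares called lower were 50.5%, 40.1% and 14.6%, and 0.0720%, 0.140% and 0.320% were called higher, against 0 member windows. Among the 5568 bodies at 50% or above in DMSO they were 98.0%, 89.3% and 36.0%, and among 1223 such 3′ ends 97.8%, 88.7% and 28.6%. The 4 calls of 4 are therefore near what methylated bodies and ends of all genes showed. At these 4 windows every drug library, at any dose, lay below both DMSO libraries. The same held at 0.2, 2 and 10 µM for 99.8%, 96.7% and 80.7% of all methylated bodies and 99.6%, 95.8% and 76.5% of methylated 3′ ends. At 3 of the 4, all but the Irf1 body, the groups stood fully apart in the order 0.2 µM, 2 µM, 10 µM, DMSO, as in 43.4% of all methylated bodies and 29.2% of all methylated 3′ ends. When every CpG was given equal weight, this held only at the Irf7 3′ end: in the Stat2 body 10 µM replicate 2 (89.1%) lay above DMSO replicate 2 (84.4%), and in the Mavs body the 10 µM libraries (26.6 and 52.2%) overlapped those of 2 µM (23.2 to 36.0%) and DMSO (55.8 and 39.9%).

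The Irf7 3′ end (7 CpGs, 24 to 60 reads per library, between chr7:141262183 and 141264183) was methylated in every DMSO read, 72 of 72 (94.9 to 100%). Levels were 100 and 100% in DMSO, 17.9 and 13.6% at 0.2 µM, 33.3, 63.3 and 43.3% at 2 µM, with 75.0 and 70.8% at 10 µM. No group overlapped another. The window fell by 84.3 points at 0.2 µM (adjusted p = 7.95e-07), fell by 53.4 points at 2 µM (adjusted p = 4.66e-05) and fell by 27.1 points at 10 µM (adjusted p = 0.018). The last call was lost without either DMSO library and with equal weight per CpG (adjusted p = 0.19), with adjusted p up to 0.31 over the alternatives tried. At 0.2 µM it kept 15.7% of its DMSO level, against a median of 33.4% over methylated 3′ ends, and 3.76% of them kept as little or less. All of the Irf7 gene spans 3317 bp, so its unmethylated start and its methylated 3′ part lie close together: the last CpG of the 5′ end is 367 bp from the start, and the methylated ones begin at 2275 bp.

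Stat2 was read in its body over 11 CpGs (45 to 117 reads), in clusters 6261 to 6378 bp and 12218 to 12415 bp from the start. Levels were 90 and 88.9% in DMSO, 21.6 and 20.5% at 0.2 µM, 47.1, 42.7 and 56.4% at 2 µM, with 67.8 and 79.7% at 10 µM. Groups did not overlap and stood in the same order as at Irf7. The body fell by 68.4 points at 0.2 µM (adjusted p = 1.53e-06) and fell by 40.7 points at 2 µM (adjusted p = 0.00033), and at 10 µM the difference of -15.7 points did not pass (adjusted p = 0.18). The clusters differed. The 8 CpGs farther from the start held 87.8 and 90.5% in DMSO, 20.3 and 12.8% at 0.2 µM, 40, 45.7 and 48.5% at 2 µM, with 64.1 and 77.0% at 10 µM, on 41 to 86 reads. The 3 nearer ones, on 3 to 31 reads, held 100 and 66.7% in DMSO, 27.8 and 41.9% at 0.2 µM, 100, 0 and 100% at 2 µM, with 100% in both 10 µM libraries. There only the 0.2 µM libraries and 2 µM replicate 2 lay below both DMSO libraries.

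Irf1 had 6 body CpGs (16 to 76 reads) 4688 to 5147 bp from the start. Its libraries held 90.7 and 100% in DMSO, 21.2 and 14.9% at 0.2 µM, 52.1, 59.2 and 63.3% at 2 µM, with 73.1 and 59.4% at 10 µM. The 10 µM libraries overlapped those of 2 µM. The body fell by 77.3 points at 0.2 µM (adjusted p = 7.37e-06) and fell by 37.1 points at 2 µM (adjusted p = 0.0039), and at 10 µM the -29.1 points did not pass (adjusted p = 0.063). Without DMSO replicate 2 the call at 2 µM was lost, with adjusted p up to 0.15 over the alternatives. At 0.2 µM the Irf1 body kept 18.95% of its DMSO level, and 3.57% of methylated bodies kept as little or less, against a median of 35.3% kept.

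Mavs had the lowest DMSO level of the 4 methylated windows, in its body, at 65.8% of pooled DMSO reads over 12 CpGs (58.2 to 72.7%). The libraries held 65.1 and 66.7% in DMSO, 19.6 and 15.4% at 0.2 µM, 35.6, 39.3 and 39.0% at 2 µM, with 44.9 and 53.1% at 10 µM (75 to 130 reads). The 4 groups did not overlap, as at Irf7 and Stat2. The body fell by 48.4 points at 0.2 µM (adjusted p = 4.75e-05) and fell by 27.9 points at 2 µM (adjusted p = 0.0078), and at 10 µM the -16.9 points did not pass (adjusted p = 0.26). The call at 2 µM was lost without either DMSO library and with equal weight per CpG (adjusted p = 0.11), with adjusted p up to 0.35 over the alternatives. The 12 CpGs lie 6099 to 6478 bp from the start, and the level was uneven along them: 6 were at or above 50% in DMSO, the highest, 6427 bp from the start, at 84.6% of 26 reads. The 5 CpGs nearest the start had 2 or 3 DMSO reads each and 4 methylated reads in all.

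**Figure D2:**
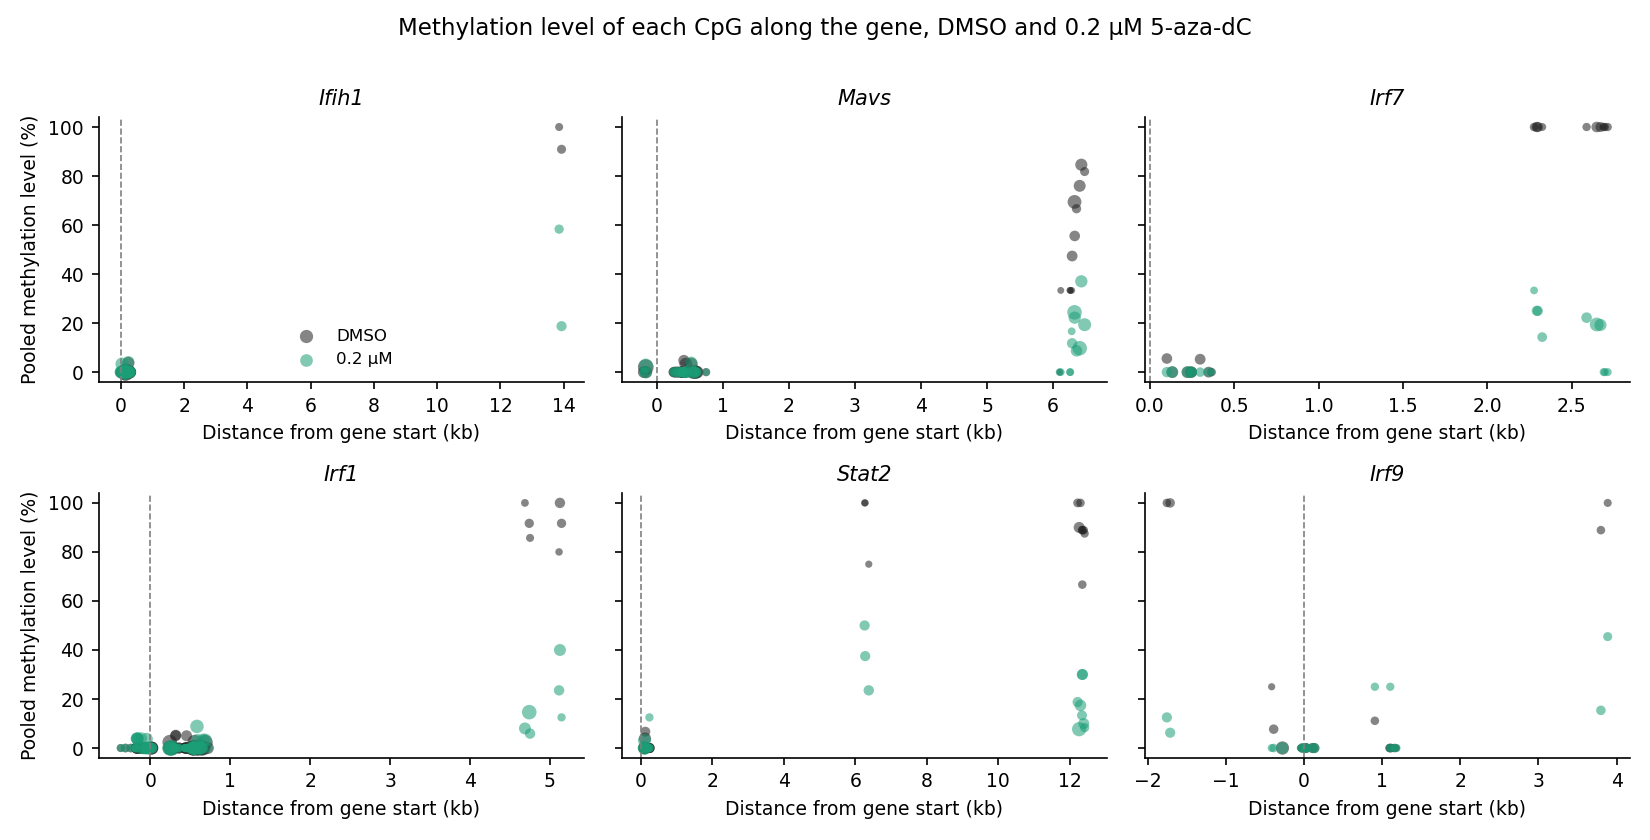
Pooled methylation level (%, vertical axis) of each CpG read in all 9 libraries by its distance from the gene start (kb, horizontal axis; dashed line at the start) in 6 genes, for DMSO (dark) and 0.2 µM 5-aza-dC (green), with point area growing with the number of reads. CpGs by the start are near 0 in both groups, and the methylated CpGs lie farther inside the gene, and at Irf9 also upstream (left of the line), where the 0.2 µM points are lower.

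The Irf9 body gave no call in any comparison. Its 7 CpGs (11 to 37 reads) had 30.3 and 20.8% in DMSO, 18.5 and 10.8% at 0.2 µM, 18.2, 40 and 39.4% at 2 µM, with 51.9 and 27.3% at 10 µM. Both 0.2 µM libraries and 2 µM replicate 1 stood below both DMSO libraries. The adjusted p was 0.45, 0.83 and 0.55 for the 3 doses against DMSO, and with equal weight per CpG the 0.2 µM difference passed (adjusted p = 0.023). In that setting all 2 µM libraries (18.2, 17.1 and 18.4%) lay below both DMSO libraries (28.6 and 25.7%). The differences from DMSO then turned from 6.96 to -9.25 points at 2 µM (adjusted p = 0.079) and from 14.0 to -3.93 points at 10 µM (adjusted p = 0.59). The window joins unlike CpGs. Those 907 to 1183 bp from the start, of which 1 falls in the 5′ end, were unmethylated (1 of 50 DMSO reads), and the 2 at 3800 to 3888 bp were methylated in 15 of 16 DMSO reads. These 2 stood at 100 and 83.3% in DMSO, 25.0 and 33.3% at 0.2 µM, 33.3, 60.0 and 61.9% at 2 µM, with 100 and 50.0% at 10 µM, on 6 to 21 reads.

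Windows with under 10 reads in a library were left out of the main test, and 4 of them belong to these genes. The Ifih1 body (2 CpGs, 13853 to 13930 bp from the start, 8 to 25 reads) held 100 and 90% in DMSO, 28.6 and 42.9% at 0.2 µM, 41.2, 46.7 and 56.0% at 2 µM, with 71.4 and 68.4% at 10 µM. The Tlr3 body (3 CpGs, 6 to 24 reads) held 89.5 and 87.5%, then 33.3 and 37.5%, then 26.7, 53.8 and 40%, and at 10 µM 50.0 and 100%. The Irf7 body (3 CpGs, 7 to 34 reads) held 100% in both DMSO libraries, 31.3 and 22.7% at 0.2 µM, 26.3, 19.2 and 38.5% at 2 µM, with 92.3 and 62.5% at 10 µM. In all 3 every library at 0.2 and 2 µM was below both DMSO libraries, as in 99.8% and 96.7% of methylated bodies in the main test. The 2 CpGs in the upstream flank of Irf9, inside Rnf31, were methylated in 22 of 22 DMSO reads and held 7.69 and 10.5% at 0.2 µM, 52.6, 18.2 and 41.7% at 2 µM, with 50.0 and 60.0% at 10 µM. A minimum of 5 reads per library was also tried, an alternative chosen after seeing the data. These 4 windows were then lower at 0.2 µM (adjusted p = 3.5e-05 to 0.0054) and at 2 µM (8.5e-05 to 0.013). At 10 µM 1 was, the Irf9 upstream CpGs (adjusted p = 0.024). In the main test 98.0%, 89.3% and 36.0% of methylated bodies of all genes were called lower at these doses.

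The doses were also compared with each other, since the lowest one lay farthest from DMSO. From 0.2 to 2 µM the level was higher at the Irf7 3′ end by 30.9 points (adjusted p = 0.036), in the Stat2 body by 27.6 points (adjusted p = 0.022) and in the Irf1 body by 40.1 points (adjusted p = 0.010), while the 20.4 points of the Mavs body did not pass (adjusted p = 0.058). The Irf7 body CpGs that adjoin this 3′ end, too thinly read for the main test, differed by 1.01 points, with overlapping libraries. Of all windows 13.1% were called higher in this comparison, and 29.1% of methylated bodies and 22.3% of methylated 3′ ends. Each of these 3 calls was lost without either 0.2 µM library, with adjusted p up to 0.35, 0.30 and 0.14 over the alternatives. The Irf7 call was also lost without DMSO replicate 1 or without 2 µM replicate 2 or 3, and the Stat2 call without 2 µM replicate 3, while the Mavs body passed without 10 µM replicate 2 (adjusted p = 0.046) and with a minimum of 20 reads (0.035). From 2 to 10 µM 0 member windows passed, against 12.0% of all windows, 28.9% of methylated bodies and 21.6% of methylated 3′ ends called higher. At an unadjusted p under 0.05, 2 of the 12 tested member windows were higher, against 5864 of all 22210 windows. The differences were 26.3 points at the Irf7 3′ end (adjusted p = 0.12), 25.1 in the Stat2 body (0.052), 11.0 in the Mavs body (0.45) and 8.02 in the Irf1 body (0.74). The Stat2 body passed without 2 µM replicate 3 (adjusted p = 0.047), and the Irf7 3′ end with equal weight per CpG (adjusted p = 0.041).

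Measured as the share of the DMSO level that was left, the 4 windows kept 15.7 to 26.6% at 0.2 µM, 46.6 to 61.0% at 2 µM and 69.5 to 82.5% at 10 µM. Methylated bodies of all genes kept a median of 35.3%, 56.6% and 78.3%. All 4 members were thus under the median of their kind at 0.2 µM, where their percentiles ran from 3.57 to 18.8, and lay on both sides of it at 2 µM, with percentiles from 16.4 to 69.2. These ranks describe 4 windows and were not tested.

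**Figure D3:**
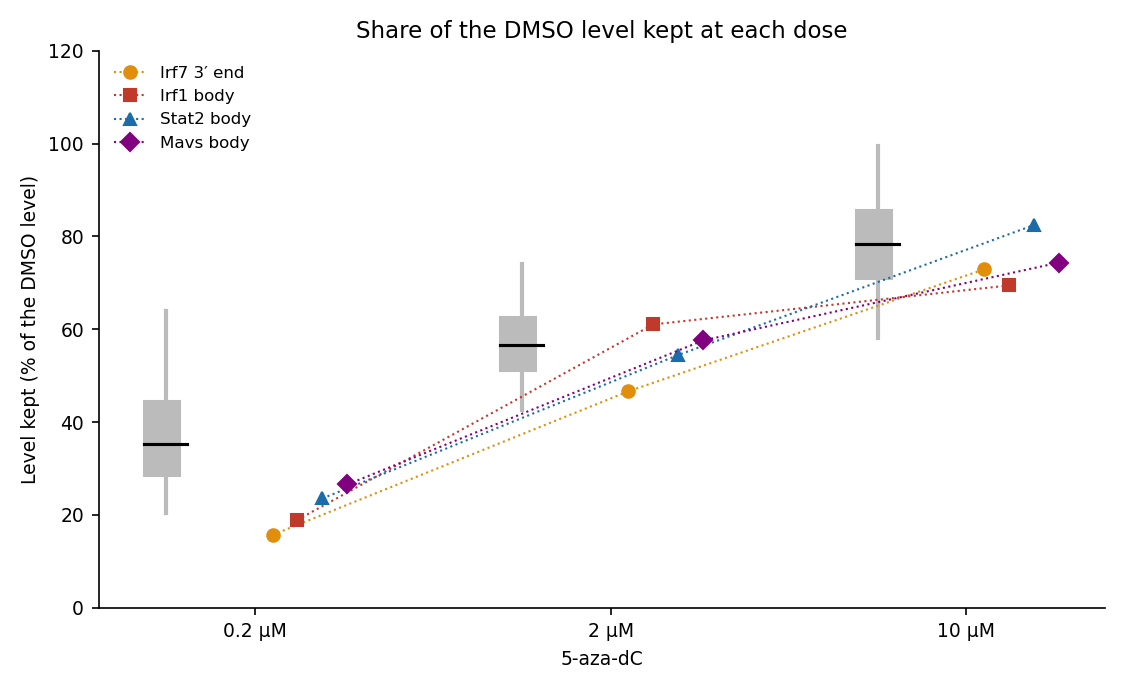
Share of the DMSO level kept (%, vertical axis) at each dose of 5-aza-dC (horizontal axis) in the 4 methylated windows (coloured points, group means) beside all 5568 gene bodies at 50% or above in DMSO (grey box, quartiles; grey line, 5th to 95th percentile; black line, median). The points rise from 15.7 to 26.6% at 0.2 µM to 69.5 to 82.5% at 10 µM, as the medians do from 35.3 to 78.3%; the Irf7 point is a 3′ end.

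The wider pathway was followed in a list of 85 symbols of sensors, adaptors, regulatory factors, receptors and STAT signalling, induced effectors and negative regulators, of which 64 were found with a strand. At the 5′ end 41 could be tested: 36 were under 10% in DMSO, 3 were between and 2 were methylated, and against DMSO 3, 1 and 1 were lower at the 3 rising doses and 0 were higher. For comparison 24.2%, 18.0% and 6.39% of all 5′ ends were called lower, and 17.2% of all 5′ ends were at 50% or above in DMSO. Of all 5′ ends under 10% in DMSO, 2.42%, 0.0569% and 0% were called lower. By role, the 5′ ends were under 10% at 7 of 7 receptors and signalling genes, 5 of 5 regulatory factors, 7 of 8 adaptors and kinases, 9 of 10 effectors, 4 of 5 sensors and 4 of 6 negative regulators.

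The methylated 2 were Nlrx1, a mitochondrial regulator that acts on Mavs, and Oasl1, of the oligoadenylate synthetase family. The Nlrx1 5′ end (31 CpGs) held 97.6 and 96.5% in DMSO, 43.1 and 45.7% at 0.2 µM, 51.6, 49.3 and 54.0% at 2 µM, with 72.1 and 68.5% at 10 µM. Of the list's 41 tested 5′ ends only this was called lower at all 3 doses: it fell by 52.6 points, fell by 45.4 points and fell by 26.7 points (adjusted p at 10 µM = 0.00079, and 0.39 within 500 bp of the start). The Oasl1 5′ end (6 CpGs) held 54.7 and 52.4% in DMSO and 12.9 and 9.64% at 0.2 µM, where it fell by 42.3 points (adjusted p = 0.0010), while at 2 µM its libraries spread from 28.9 to 67.4% and did not differ detectably from DMSO (adjusted p = 0.89). The third gene lower at 0.2 µM was Irf2bp1, a corepressor that binds Irf2, which fell by 6.48 points from 10.1% (adjusted p = 0.0031). That call was lost without DMSO replicate 1, without 0.2 µM replicate 2 and within 500 bp of the start, where the difference was 0.167 points.

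In bodies, 35 genes of the list could be tested and 20 were at 50% or above. Of the 35, 27, 22 and 9 were lower than in DMSO at the 3 rising doses, against 78.2%, 63.1% and 24.1% of all 8365 bodies. By role, those lower at 0.2 µM were 8 of 8 adaptors and kinases, 5 of 5 sensors, 5 of 6 receptors and signalling genes, 3 of 6 effectors, 3 of 5 regulatory factors and 3 of 5 negative regulators. The adaptors and the sensors, of which 7 and 4 were at 50% or above, had median changes of -62.5 and -55.6 points from median DMSO levels of 90.6 and 95.6%. Over all bodies at 50% or above the median change was -52.6 points from 85.2%. Higher calls were 0, 0 and 1, against 0.490% of all bodies at 10 µM. The 1 was the body of Pml, a nuclear body protein named here after its values were seen. Its libraries held 11.8 and 14.5% in DMSO and 19.0 and 32.8% at 10 µM (adjusted p = 0.040), and the call held under 8 of 16 alternatives. It was lost under 7, among them without either DMSO library and without 10 µM replicate 2, with adjusted p up to 0.52, and with equal weight per CpG the difference turned to -4.68 points. At the 3′ end 8, 8 and 2 of 14 were lower at the 3 rising doses, against 69.0%, 58.0% and 18.2% of all 3′ ends.

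By the root mean square difference of the level over the 9 libraries, among the 35 bodies of the list, the body most like that of Stat2 was Myd88, an adaptor of Toll-like receptors, at 6.36 points. Its group means were 91.3, 17.8, 48.5 and 66.2% in DMSO and at 0.2, 2 and 10 µM. Mavs was most like Tyk2, a kinase of the interferon receptor, at 7.94 points, Irf1 like Oas1a at 8.26 points and Irf9 like Irf8 at 11.8 points. With reads summed over CpGs, the last pair differed in its dose pattern. Group means in the same order were 41.8, 17.7, 28.2 and 38.7% for Irf8, and 25.6, 14.7, 32.5 and 39.6% for Irf9. The Irf9 pattern depended on the weighting. With equal weight per CpG its libraries held 28.6 and 25.7% in DMSO and 16.7 and 10.6% at 0.2 µM. They then held 18.2, 17.1 and 18.4% at 2 µM, with 28.6 and 17.9% at 10 µM. In the binomial model the Irf8 body was lower at 0.2 µM (adjusted p = 3.9e-05) and 2 µM (adjusted p = 0.0090), and the Irf9 body at no dose.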

How the data were processed

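RRBS had been done by the submitters on 9 libraries. For every library the authors deposited a headerless table giving for each CpG its position, methylated over all reads as 1 text entry and a score. In every line the deposited score equalled the methylated share times 1000, rounded down, so the text entry was used. Positions are in mm10 per the submitters' processing notes; for the aligner, caller and read filters: not given in the sources used here. Of 179593 positions inside RefSeq promoter sequences (GRCm38.p6), 179593 fell on a CG, and 0 did when moved by 1 bp, so the builds fit. Exons, introns and CpG islands were not analysed here. Between 1 and 2 lines of another width and 18 to 68 lines at repeated positions per library were left out.

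Reads of CpGs covered in all 9 libraries were summed per window (upstream flank, 5′ end, body, 3′ end, downstream flank) of each protein-coding gene with a strand. Windows with 10 reads in every library were tested, 22210 of 28622. The test was a binomial model with 1 level per group over all 9 libraries. Reads were scaled down to an effective number, with a correlation between reads of 0.0352 to 0.00368 over 5 classes of coverage. Dispersion was moderated with limma 3.58.1 (R 4.3.3; Python 3.11.15), with a trend on coverage and a floor of 1, and p-values were adjusted by Benjamini-Hochberg over all windows. The prior for the dispersion came only from windows at 10 to 90%, a choice made after seeing the data: with all windows, 0 of 200 windows changed by 1.5 on the log odds scale were recovered in simulated data at each dose, against 98, 112 and 91 of 200 at 0.2, 2 and 10 µM, with 0, 1 and 3 unchanged windows called among 22210. Only 200 of 22210 windows were changed in the simulation, far fewer than were called in the data. Its reads were drawn with the correlation that the model assumes. Its counts therefore do not measure how many changes either prior would find or miss in the data. Changes are differences of group means in percentage points.

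The genes, the wider list and the tests were chosen with earlier results of these data known. Members were all described. Of the wider list, genes were named for a 5′ end at 50% or above in DMSO, for the largest changes at the 5′ end past the threshold (up to 5 each way per dose), and, 1 per member, for the most similar body. Alternatives were a minimum of 5 reads per CpG, minimums of 5 and 20 reads per window, ends of 500 bp, limma on unweighted levels, centring on the median change, a replicate block, leaving out each library and the prior from all windows. Depth limits single CpGs, with a median of 3 to 5 reads each.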

Additional observations from a re-analysis of the deposited data

How the results depend on the processing

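All 4 falls at 0.2 µM (Irf7 3′ end, Stat2, Irf1 and Mavs bodies) kept their direction and passed under every alternative that could be fitted, with the highest adjusted p at 0.045. Few libraries per group and 6 to 130 reads behind most methylated windows limit the rest. Leaving out 1 library each, where a group of 1 is assumed to vary like the others, gave 4 to 4, 2 to 4 and 0 to 1 member windows lower at 0.2, 2 and 10 µM, 0 to 4 higher from 0.2 to 2 µM and 0 to 1 from 2 to 10 µM. Over all windows it gave 9903 to 11329, 7004 to 9071 and 978 to 3449 lower and 12 to 19, 14 to 35 and 15 to 80 higher against DMSO, 25 to 196 lower and 394 to 3331 higher from 0.2 to 2 µM, and 1 to 7 lower and 971 to 2430 higher from 2 to 10 µM. The counts compared were 11227, 8917 and 3240 lower and 16, 31 and 71 higher against DMSO, 168 lower and 2902 higher from 0.2 to 2 µM, and 3 and 2675 from 2 to 10 µM; for members 4, 4 and 1 lower, and 3 and 0 higher.

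With 5 reads per CpG, which leaves fewer CpGs and windows, counts were 5907, 4869 and 1970 lower, 17 higher at 2 µM and 26 at 10 µM, 42 lower and 225 higher from 0.2 to 2 µM and 388 higher from 2 to 10 µM; for members 2 lower at 0.2 µM, 2 at 2 µM and 0 higher from 0.2 to 2 µM, and the Ifih1 5′ end was at 0% in DMSO. With limma on unweighted levels 56 were higher at 0.2 µM, 52 at 2 µM, 1823 lower at 10 µM, 85 lower from 0.2 to 2 µM and 27 from 2 to 10 µM; for members 3 lower at 2 µM, 0 at 10 µM and 2 higher from 2 to 10 µM. Centring on the median change (-1.08, -0.63, -0.32, 0.47 and 0.43 log odds in the order of the comparisons) turned the calls toward 4276, 3074 and 442 lower and 417, 535 and 139 higher against DMSO, 472 lower and 120 higher from 0.2 to 2 µM, and 0 and 0 from 2 to 10 µM; for members 1 lower at 2 µM (the Stat2 body), 0 at 10 µM and 0 higher from 0.2 to 2 µM. Changes in the text are thus not relative to the genome-wide fall. With the prior from all windows 7, 10 and 2 were higher, 653 lower at 10 µM and 0 called either way between doses (279 lower and 4882 higher, and 10 and 4796, at an unadjusted p under 0.05); members had 0 lower at 10 µM and 0 higher from 0.2 to 2 µM. With 5 reads per window members had 8, 8 and 2 lower and 1 higher from 2 to 10 µM. Ends of 500 bp gave 1978, 1564 and 234 lower of 10241 end windows, against 3759, 2920 and 993 of 11964. The cause of these shifts was not tested.

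Libraries share only a replicate number: deviations of same-numbered libraries correlated at -0.028 to 0.011 over 9099 windows. A fit with the number as a block, without 2 µM replicate 3, gave 11283, 8644 and 3414 windows lower against DMSO and 1986 and 2122 higher between doses, 4, 4 and 1 member windows lower, 2 higher from 0.2 to 2 µM (the Stat2 body was lost) and 1 from 2 to 10 µM, the Stat2 body. Leaving out 2 µM replicate 3 alone made the same 2 changes to the Stat2 calls, so they cannot be put down to the block, and no other member call changed in this fit. No member call changed sign. Differences without a call did at some 5′ ends near 0 and in the Irf9 body, which with equal weight per CpG stood at -9.25 points at 2 µM and -3.93 points at 10 µM. With equal weight per CpG the Pml body turned to -17.1 points at 2 µM and -4.68 points at 10 µM, and within 500 bp the Irf2bp1 5′ end stood at 0.167 points at 0.2 µM.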
